A study of Mus musculus with 8 samples.

Results

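Translation initiation factors (eIFs) bring the initiator tRNA and the small ribosomal subunit to an mRNA and find its start codon, and translation elongation factors (eEFs) then deliver aminoacyl-tRNAs and move the ribosome along the coding sequence. Initiation is the step most often regulated, either through phosphorylation of eIF2 or through proteins that bind the cap-binding factor eIF4E and keep it from the scaffold eIF4G. In mouse embryonic stem cells (mESCs) the rate of protein synthesis is known to be kept low and to increase upon differentiation. The factors were taken by gene symbol, as every gene whose symbol starts with Eif or Eef followed by a digit, and 3 genes that match this pattern are not reported here. This gave 61 of the 14709 genes listed in 2 RNA-seq experiments, with 59 of 13056 in the first and all 61 of 14319 in the second. Eif4e1b and Eef1a2 had no entry in the first.

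Both experiments used mESCs labelled as a C57BL/6(F) x 129/sv(M) cross of embryonic day 3.5, grown in serum with leukaemia inhibitory factor. In the first experiment (sorted cells), the cells carried a PiggyBac reporter, driven by the CAGGS promoter, in which Emerald GFP was joined to KLF3 lacking its zinc fingers, together with DsRed from the EF1α promoter. From picked and expanded hygromycin-resistant colonies, 500 KLF3-GFP negative or 500 KLF3-GFP positive cells were sorted per sample, and libraries were made by Smart-seq2, a full-length cDNA protocol for few cells. The positive cells were a small minority of the line, and their GFP reports the stability of a KLF3 fragment, not the level of endogenous KLF3. In the second experiment (overexpression), clones of a line with the M2rtTA transactivator at Rosa26 and an FRT site at Col1a1 received a codon-optimized Klf3 or a GFP transgene there, and were kept in doxycycline for 72 h before poly(A) RNA-seq (KLF3-overexpression-72h and GFP-overexpression-72h). Each of the 4 conditions had 2 samples, 8 in all. The tables hold 1 value per gene and condition, the authors' mean of both samples in FPKM (fragments scaled to transcript length and to sequencing depth). Neither the spread between samples nor the depth is known, so no test was possible. A gene is called higher or lower below where log2(FPKM + 1) differed by more than 1, which is 2-fold on this scale, and differences were read for genes that averaged 1 FPKM or more over the 2 columns of a table (genes measured).

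Klf3 mRNA was 107 FPKM in negative and 122 FPKM in positive sorted cells, values that may include reads of the reporter's KLF3 sequence. After induction it was 58.7 FPKM with GFP and 47.8 FPKM with KLF3, and reads of a codon-optimized transgene need not align to the gene. Of 7 pluripotency genes, 5 were lower in KLF3-GFP positive cells (71.4%, against 8.32% of all genes measured) and 3 after KLF3 induction (42.9%, against 10.1%). After induction 1 was lower with the conditions scaled by the median ratio and 5 with quantile normalization, and Pou5f1 was above 0 (883 and 990 FPKM, 0.16). The summed level was 770 against 273 FPKM in sorted and 2448 against 1848 FPKM in induced cells. All 5 primitive endoderm genes (Gata4, Gata6, Sox17, Sox7 and Pdgfra) were higher in both experiments, against 13.8% and 6.6% of all genes measured. Their sums were 6.04 and 112 FPKM in sorted and 7.55 and 37.1 FPKM in induced cells. Among 5 trophoblast genes, Krt8 and Krt18 were higher in both, while Cdx2, which defines that lineage, was at most 0.6 FPKM in every condition, and Col1a1, a fibroblast gene of feeder cells, was at most 0.29 FPKM where listed. The trophoblast list summed to 32.3 and 392 FPKM in negative and positive cells and to 66.2 and 521 FPKM with GFP and KLF3. Most of each sum was Krt8 and Krt18 (206 and 183 FPKM in positive cells, 176 and 340 FPKM with KLF3). Of the other genes of this list, Eomes was within the limits in both experiments (0.44 and 0.13) and Gata3 was at most 0.66 FPKM. The fibroblast list summed to 0.55 and 0.51 FPKM in sorted and to 3.13 and 3.83 FPKM in induced cells. The part of these markers in the results on translation factors was not tested, and in such bulk samples fewer cells of a type cannot be told apart from less RNA per cell. After KLF3 induction the median difference of all genes measured was -0.18 on the log2 scale, and scaling the conditions by the median ratio moved that median to 0.00. In sorted cells it was 0.03.

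Translation factor mRNAs spanned the whole range of expression in mESCs. In KLF3-GFP negative cells, Eif1, which keeps the scanning ribosome in an open form, was highest at 2224 FPKM, ahead of Eif5a at 1880 FPKM, Eif2s2 at 1714 FPKM and Eif4ebp1 at 1507 FPKM. In GFP-overexpressing cells, Eef1a1, which carries aminoacyl-tRNA to the ribosome, reached 10328 FPKM, the highest value of any gene listed, ahead of Eef1b2 at 1862 FPKM, Eef2 at 1361 FPKM and Eif4a1 at 1243 FPKM. FPKM are per transcript length, so these are orders of level within an experiment, while the experiments differ in library protocol. Eef1a1 was at 484 FPKM in KLF3-GFP negative cells, rank 298 of the genes listed there. Several tissue-restricted paralogs were low. Eef1a2, the muscle and neuron form of eEF1A, was 0.51 FPKM with GFP and 1.02 FPKM with KLF3. Eif4e1b, an oocyte form of the cap-binding protein, was 0.38 FPKM and 0.3 FPKM. Eif4e3 was between 0.34 and 1.47 FPKM in all conditions, and Eif5a2 was 0.23 and 0.41 FPKM in sorted cells. Of the other factors, Eef2k was 0.62 and 0.52 FPKM in sorted cells and Eif4ebp3 was 0.51 FPKM with GFP. The eIF2 kinases were also low, between 1.58 and 3.94 FPKM in sorted cells and between 4 and 10.4 FPKM in the induced cells.

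**Figure D1:**
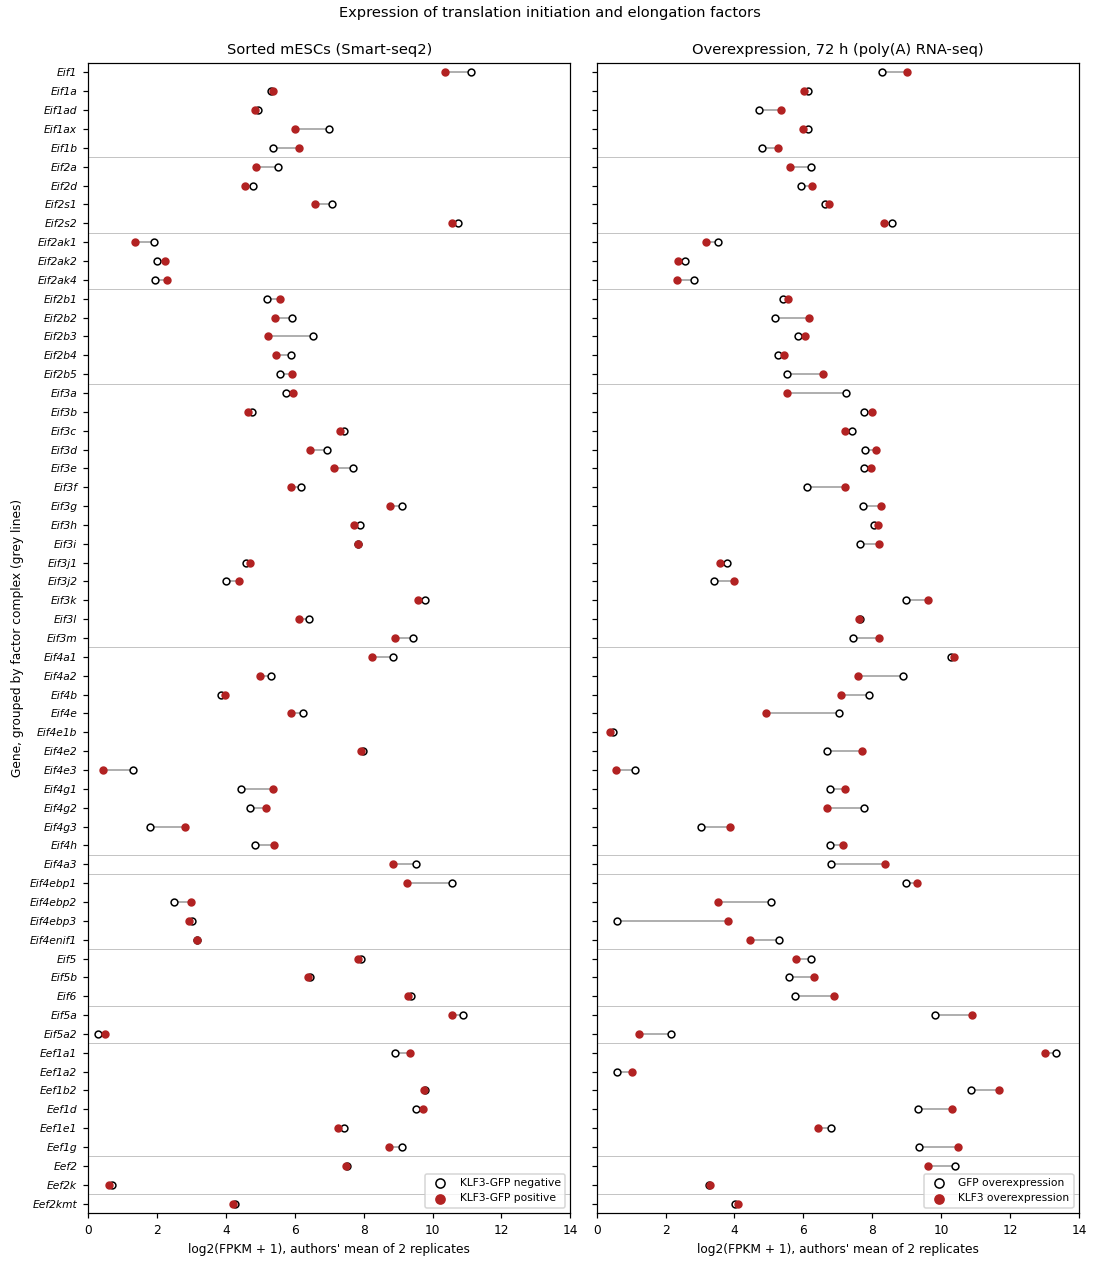
Expression of each translation factor as log2(FPKM + 1), the authors' mean of 2 samples, on the horizontal axis, with 1 row per gene, grouped by factor complex (grey lines). Open circles are KLF3-GFP negative or GFP-overexpressing cells and red circles are KLF3-GFP positive or KLF3-overexpressing cells; Eef1a1 reaches 10328 FPKM in the right panel, and Eif4ebp3, Eif4e and Eif3a have wide gaps there.

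In sorted cells, most factors had small differences between KLF3-GFP positive and negative cells. Of the 59 factors listed, 56 were measured, with a median difference of -0.10 against 0.03 for all 9212 genes measured, and 38 of the 56 were below 0. Only 1 factor was higher by over 2-fold (1.79%), against 13.8% of all genes measured, and 2 were lower (3.57%), against 8.32%. Eif4e3, Eif5a2 and Eef2k did not reach the minimum mean. The summed level of the factors was 17100 FPKM in negative and 13590 FPKM in positive cells, or 1.89% and 1.43% of the sum over all genes listed.

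The factor that was higher was Eif4g3, a paralog of the scaffold that joins the cap-binding protein to the ribosome (mm10, chr4:137993022-138208508). Its level was 2.51 FPKM in negative and 6.07 FPKM in positive cells, a difference of 1.01 on the log2 scale, barely past the limit and short of it under median-ratio scaling (0.98) and quantile normalization (0.86). The main scaffold Eif4g1 went the same way, from 20.9 to 40.5 FPKM (0.93), just within the limit. Eif4g2, a scaffold without the eIF4E-binding site, was 24.9 and 35.1 FPKM (0.48), so all 3 scaffold genes were above 0 and only Eif4g3 was past the limit. The cap-binding Eif4e differed the other way, from 74.6 to 58.6 FPKM (-0.34), as did the helicase gene Eif4a1, from 459 to 299 FPKM (-0.61). The helicase cofactors Eif4h (0.56) and Eif4b (0.12) were on the side of the scaffolds.

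The 2 factors that were lower regulate initiation. Eif4ebp1 (chr8:27260327-27275656), which binds eIF4E when mTOR is inactive, was 1507 FPKM in negative and 607 FPKM in positive cells, 2.48-fold lower as a plain ratio (-1.31). It was the most abundant eIF4E-binding protein mRNA by far, and its ratio to Eif4e was 20.2 and 10.4. Its paralog Eif4ebp2 was 4.65 and 6.96 FPKM (0.49). Eif2b3 (chr4:117019402-117087306), a subunit of the complex that reloads eIF2 with GTP, was 92.3 and 36.1 FPKM (-1.33), the lowest difference of any factor. The other subunits of that complex were divided, with Eif2b2 (-0.48) and Eif2b4 (-0.44) below 0 and Eif2b1 (0.38) and Eif2b5 (0.36) above.

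Of the start-site selection factors, Eif1 was 2224 and 1306 FPKM (-0.77) and Eif1ax, the X-linked eIF1A gene, was 126 and 63.8 FPKM (-0.97), the nearest to the lower limit among the factors that were not past it. It was past that limit with median-ratio scaling (-1.01), quantile normalization and removal of the trend of span (-1.05) or of all trends (-1.32). Their paralogs did not follow. Eif1b was 40.6 and 68.2 FPKM (0.73) and Eif1a was 39 and 40.3 FPKM (0.05), and reads shared by near-identical copies such as Eif1a and Eif1ax may have been divided between them by the counting. Both eIF2 subunit genes measured and both alternative initiator tRNA carriers were below 0, from Eif2s2 at 1714 and 1517 FPKM (-0.18) to Eif2a at 45.2 and 28.6 FPKM (-0.64), with the eIF2α gene Eif2s1 at 135 and 94.6 FPKM (-0.51). Among the kinases that phosphorylate eIF2α, Eif2ak1 was 2.74 and 1.58 FPKM (-0.54) and Eif2ak4 was 2.86 and 3.94 FPKM (0.36), both within the limits and at low levels.

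The eIF3 complex, which recruits the small ribosomal subunit to the mRNA, moved little as a whole, from 3360 to 2763 FPKM summed over 14 subunit genes. Of these, 11 were below 0 (between 11 and 13 under the other scalings and trend removals) and none was past the limits, with a range from -0.57 for Eif3e (207 and 139 FPKM) to 0.38 for Eif3j2, an intronless copy of Eif3j1. Eif3m, at 684 and 485 FPKM, was at -0.50, and Eif3k, the highest subunit at 881 and 762 FPKM, at -0.21. The exon junction helicase gene Eif4a3 was 730 and 462 FPKM (-0.66). Eif5 (-0.10), Eif5b (-0.05) and Eif6 (-0.08), which act at subunit joining, were all close to 0, Eef2, the translocase, was 181 and 178 FPKM (-0.02), and its methyltransferase Eef2kmt was at -0.07. Eif5a, which helps the ribosome past slowly formed peptide bonds, was 1880 and 1512 FPKM (-0.31). The eEF1 genes ranged from Eef1g at 552 and 423 FPKM (-0.38) to Eef1a1 at 484 and 645 FPKM (0.41).

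**Figure D2:**
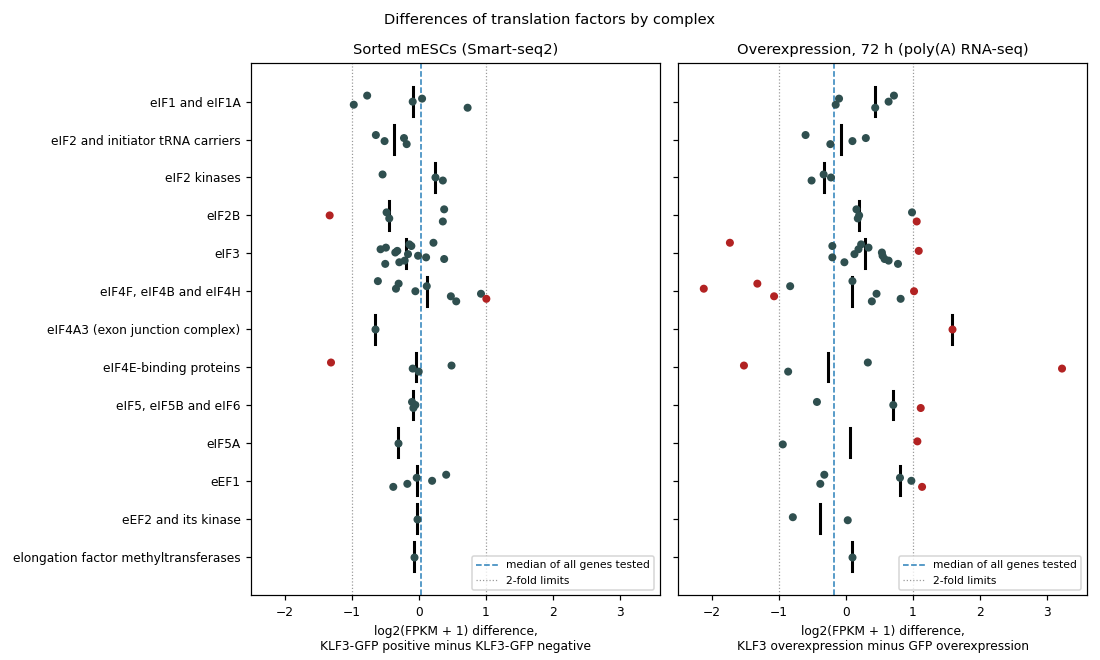
Difference of log2(FPKM + 1) for each measured translation factor (points, jittered within a row), KLF3-GFP positive minus negative on the left and KLF3 minus GFP overexpression on the right. Red points are past 2-fold (dotted lines), black bars are the median of a complex, and the dashed line is the median of all genes measured (0.03 and -0.18). The left panel holds 3 red points and the right panel 13, with all eIF2B points right of 0 there.

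KLF3 overexpression for 72 h gave larger differences in both directions. Of the 61 factors, 58 were measured, and 8 were higher (13.8%) against 6.6% of the 11179 genes measured, and 5 were lower (8.62%) against 10.1%. Their median difference was 0.18, against -0.18 for all genes measured. Most factors are abundant, and among the 3720 genes averaging 20 FPKM or more the median was 0.15, against 0.21 for the 48 factors among them. Of these 48, 14.6% were higher and 10.4% lower, against 11.3% and 6.1% of the 3720 genes. The shares of genes called depend on how the conditions are scaled. With median-ratio scaling 12 factors were higher and 4 lower, against 10.4% and 6.22% of all genes, and with quantile normalization 3 were higher and 7 lower, against 7.13% and 6.35%. The summed level was 23351 FPKM with GFP and 25558 FPKM with KLF3, but its share of all genes listed was 3.81% and 3.06%, as the sum over all genes was 612621 and 834882 FPKM. Eif4e1b, Eif4e3 and Eef1a2 did not reach the minimum mean.

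The cap-binding complex eIF4F and the genes grouped with it, which include Eif4g2, held 3 of the 5 factors that were lower. Eif4e (chr3:138526179-138559696), which binds the mRNA cap, was 131 FPKM with GFP and 29.3 FPKM with KLF3, 4.47-fold lower (-2.12) and the lowest difference of any factor. Eif4a2 (chr16:23107444-23114136), a helicase paralog whose gene holds 5 small nucleolar RNA genes, was 477 and 190 FPKM (-1.32). Its exons overlap those of Rfc4 on the opposite strand (47.7 and 75.5 FPKM, 0.65). The sources used here do not state that counting used strand, so reads of such pairs, which involve 11 of the factors, could not be told apart. Eif4g2 (chr7:111070568-111083030) was 217 and 103 FPKM (-1.07), and was not past the limit with median-ratio scaling. The measured paralogs of these genes did not share the direction, although Eif4a1 was close to 0 and reached -0.42 under other scalings or trend removals. Eif4e3, below the minimum mean, was 1.15 and 0.48 FPKM. Eif4e2 (chr1:87213914-87240488), a cap-binding protein that does not support eIF4F assembly, was 101 and 205 FPKM (1.02), a call not kept under quantile normalization. The ratio of Eif4e to Eif4e2 was therefore 1.3 with GFP and 0.143 with KLF3. The main helicase gene Eif4a1 was 1243 and 1336 FPKM (0.10), which moved its ratio to Eif4a2 from 2.6 to 7.02. Eif4g1 was 107 and 148 FPKM (0.46) and Eif4g3 was 7.21 and 13.5 FPKM (0.82), so the ratio of Eif4g1 to Eif4g2 went from 0.494 to 1.44. Eif4b, a cofactor of the helicase, was 241 and 135 FPKM (-0.83), while the related Eif4h was 107 and 141 FPKM (0.39).

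The eIF4E-binding proteins split as well. Eif4ebp2 (chr10:61432497-61452669) was 32.1 FPKM with GFP and 10.5 FPKM with KLF3, 3.05-fold lower (-1.52). Eif4ebp1 was 506 and 634 FPKM (0.33), and with the lower Eif4e its ratio to Eif4e was 3.86 and 21.6. Eif4enif1, which carries eIF4E into the nucleus, was 38.3 and 20.7 FPKM (-0.86). Eif4ebp3 was 0.51 and 13.1 FPKM (3.23), the largest difference of any factor, although the fold rests on a level below 1 FPKM with GFP. Its exons are shared with an annotated coding gene on the same strand that runs through from the direction of Ankhd1, so the reads cannot be assigned to Eif4ebp3 alone. Ankhd1 itself was 38.8 and 22.5 FPKM (-0.76).

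Most other calls were higher with KLF3. Eif4a3 (chr11:119288363-119300089), the helicase that anchors the exon junction complex on spliced mRNA, was 111 and 333 FPKM, 3-fold higher (1.58). Eif6 (chr2:155819832-155826925), which keeps the large subunit from joining too early, was 53.1 and 117 FPKM (1.12), and Eif5b, the GTPase of subunit joining, was 47 and 77.7 FPKM (0.71), while Eif5, the GTPase activator of eIF2, was 73.3 and 54.2 FPKM (-0.43). Eif5a (chr11:69916714-69921958) was 907 and 1909 FPKM (1.07). Its restricted paralog Eif5a2 was 3.48 and 1.33 FPKM (-0.94), so the pair moved apart. Eef1g (chr19:8967041-8978479), a subunit of the eEF1A exchange factor, was 657 and 1449 FPKM (1.14). The exchange factor subunits Eef1d (648 and 1275 FPKM, 0.98) and Eef1b2 (1862 and 3268 FPKM, 0.81) were on the same side and within the limit. Eef1a1, which they serve, was 10328 and 8293 FPKM (-0.32), from rank 1 to rank 7 among all genes listed, and the ratio of Eef1b2 to Eef1a1 was 0.18 with GFP and 0.394 with KLF3. Eef1e1, which is a part of the tRNA synthetase complex, was 111 and 84.8 FPKM (-0.38). Eef2 was 1361 and 787 FPKM (-0.79), and its kinase gene Eef2k was 8.53 and 8.73 FPKM (0.03).

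All 5 eIF2B subunit genes were above 0 after KLF3 induction, also with median-ratio scaling and quantile normalization, but 3 of 5 with the trend of genomic span removed. Eif2b5 (chr16:20498817-20509955), the catalytic subunit, was 45.1 FPKM with GFP and 94.9 FPKM with KLF3 (1.06), and Eif2b2 was 35.1 and 70.8 FPKM (0.99). The other 3 lay between 0.16 and 0.20. Of the subunits of their substrate eIF2, Eif2s1 was 98.3 and 106 FPKM (0.10) and Eif2s2 was 381 and 324 FPKM (-0.23). Of the alternative initiator tRNA carriers, Eif2a was 73.1 and 48 FPKM (-0.60) and Eif2d was 60.6 and 74.6 FPKM (0.30). The 3 eIF2 kinase genes measured were below 0 (2 of 3 with quantile normalization), from Eif2ak2 (-0.22) through Eif2ak1 (-0.33) to Eif2ak4 (6.13 and 4 FPKM, -0.51).

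Within eIF3, 10 of 14 subunit genes were above 0 (12 with median-ratio scaling and 7 with quantile normalization) and the sum was 2607 FPKM with GFP and 3302 FPKM with KLF3. Eif3a (chr19:60761116-60790693), the large scaffold subunit, stood apart at 151 and 45.1 FPKM, 3.36-fold lower (-1.73). The next lowest subunits, Eif3c and Eif3j1, were at -0.20. Eif3f (chr7:108934417-108942951) was 68.2 and 146 FPKM (1.09), Eif3m was 172 and 295 FPKM (0.78) and Eif3k was 504 and 786 FPKM (0.64). As a result, the ratio of Eif3k to Eif3a was 3.33 with GFP and 17.5 with KLF3, whereas in sorted cells it was 16.9 and 12.5. In eIF1 and eIF1A, Eif1 (308 and 509 FPKM, 0.72) and Eif1ad (25.4 and 40.2 FPKM, 0.64) were the farthest from 0.

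The 2 experiments gave different pictures of the same factors. Of 56 factors measured in both, 19 had the same sign (33.9%), against 50.6% of the 8887 genes measured in both. The most frequent combination was below 0 in sorted and above 0 in induced cells, with 27 factors (48.2%) against 21.3% of all genes. Most factors are abundant, and this combination was not counted among abundant genes alone. Of genes averaging 20 FPKM or more, 48.7% were above 0 in sorted and 58.3% in induced cells. For such factors the shares were 23.9% and 64.6%. Signs in induced cells also depend on scaling, as the factor median was 0.03 with quantile normalization. In both experiments, 0 factors were past 2-fold, against 397 of the 8887 genes, whatever their sign. Only 1 factor was higher and 2 lower in sorted cells, so few could be past 2-fold in both. The experiments share no control samples. Across the 56 factors, Pearson's r was -0.09 and Spearman's rho -0.12 (0.21 and 0.08 over all genes), as a description only, since genes of one library are not independent. Eif4a3 was the clearest case of opposite sign, at -0.66 in sorted and 1.58 in induced cells, and Eif3a was at 0.22 and -1.73. Eif4g3 and Eif4g1 were above 0 in both and Eif4e was below 0 in both.

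**Figure D3:**
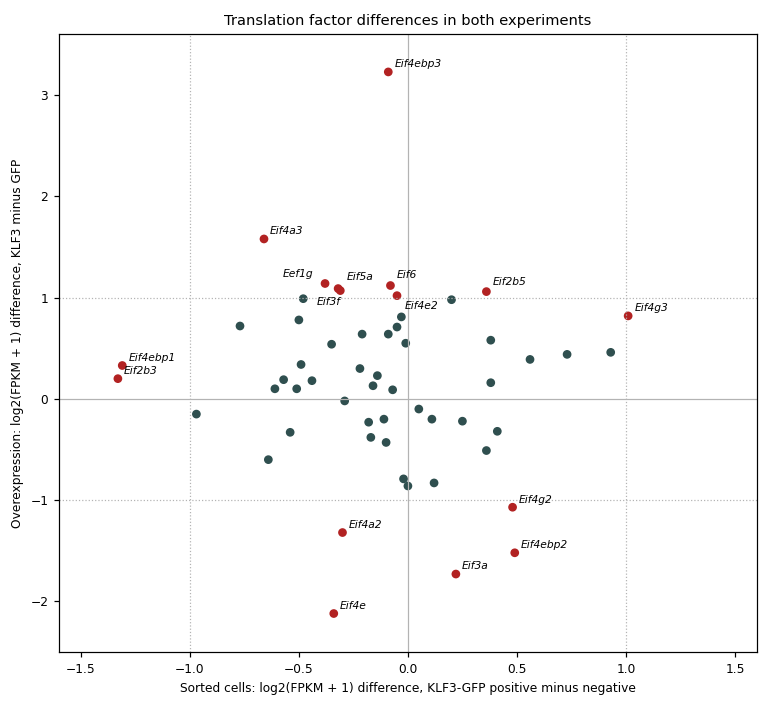
Difference of log2(FPKM + 1) in sorted cells (horizontal axis, KLF3-GFP positive minus negative) against that after induction (vertical axis, KLF3 minus GFP) for the 56 translation factors measured in both experiments. Factors past 2-fold (dotted lines) in either are red and named; no factor is past 2-fold on both axes, and 27 points lie at the upper left.

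In the induced cells the differences varied with gene structure. Over the 58 factors, Spearman's rho of the difference was -0.39 with the genomic span of the locus, -0.31 with transcript length and 0.37 with GC content of the transcripts, and the values over all genes were -0.40, -0.28 and 0.32. Without Eif4ebp3, which has the shortest span, rho with span was -0.36. Among genes of the shortest spans (up to 7.41 kb), 14 factors had a median of 0.61 and all genes 0.35. Up to 15.8 kb, 16 factors had a median of 0.33 (all genes -0.01), and up to 29.3 kb, 14 factors were at -0.08 (all genes -0.22). Among genes between 29.3 and 60.5 kb, 8 factors had a median of -0.41 and all genes -0.44. Above 60.5 kb the median of 6 factors was 0.08, where that of all genes was -0.49. Eif4a2 and Eif4g3 lay apart from this pattern, since Eif4a2 spans only 6.7 kb and was lower and Eif4g3 spans 215 kb and was at 0.82. In sorted cells rho with span was 0.04 over 56 factors and 0.06 over all genes. The part of gene structure in the calls was not tested, but with the trend of span removed Eef1g (0.95), Eif5a (0.66), Eif6 (0.78), Eif3f (0.80) and Eif2b5 (0.86) were no longer past 2-fold, nor were these 5 with quantile normalization (0.54 to 0.91), whereas Eif4a3, Eif4e2, Eif4e, Eif3a, Eif4ebp2, Eif4a2, Eif4g2 and Eif4ebp3 were. Eif4g3 (1.04) and Eef2 (-1.18) became past 2-fold with that trend removed, and also with quantile normalization.

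**Figure D4:**
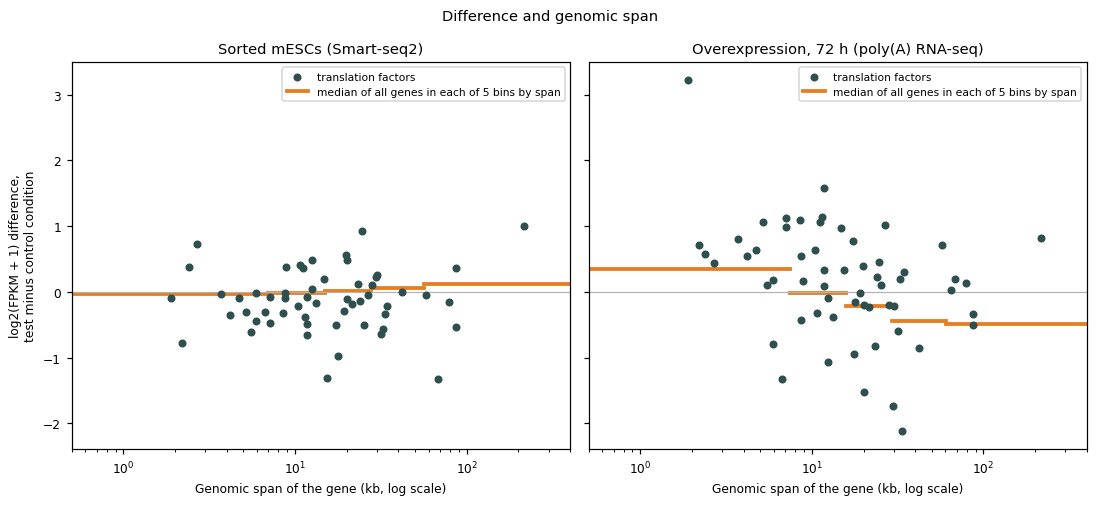
Difference of log2(FPKM + 1) against the genomic span of the locus in kb (log scale) for the measured translation factors (points), with the median of all genes in 5 equal bins by span (orange steps). In the right panel the steps descend from 0.35 to -0.49 and the factors' median in the last bin (0.08) lies above its step (-0.49); in the left panel the steps stay between -0.03 and 0.12.

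Most factor mRNAs of elongation and some of initiation carry a terminal oligopyrimidine (TOP) tract, through which mTOR and LARP1 control their translation together with that of ribosomal proteins. The 10 factors listed as TOP mRNAs had a median of -0.03 in sorted cells with none past the limits, and 0.16 in induced cells with Eef1g and Eif3f higher and Eif3a lower. The ribosomal protein genes, for comparison, had a median of -0.23 in sorted cells. There, 74 of 88 were below 0, against 4431 of all 9212 genes measured. In induced cells their median was 0.84, with 86 of 88 above 0 (40.5% of all genes) and 25 higher (28.4%, against 6.6%). With quantile normalization 63 were above 0 and 3 higher. With the trend of span removed 73 were above 0 and 1 was higher, and with all trends removed 50 and 0. The median of the TOP factors in induced cells was of opposite sign with quantile normalization (-0.32). Elongation factors as a whole (8 measured in induced cells) had a median of 0.06 there.

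Genes that act around the factors were read from lists of 8 to 18 genes. As for the factors, some of their calls were not kept under other scalings or trend removals. Of the enzymes that make hypusine on eIF5A and diphthamide on eEF2, none of 8 was past the limits in sorted cells, and in induced cells 2 were higher and 2 lower. Dhps, the first enzyme of hypusine synthesis, was 52.2 FPKM with GFP and 146 FPKM with KLF3 (1.47), and 134 and 89.2 FPKM in sorted cells (-0.58). In the diphthamide pathway of induced cells, Dph3 was higher (47.9 and 101 FPKM, 1.07). Dph1 (7.77 and 3.13 FPKM, -1.09) and Dph6 (12.8 and 5.57 FPKM, -1.07) were lower, and all 3 were close to the limits. Of the 8 enzymes, 2 were higher and 0 lower with median-ratio scaling, and 1 and 0 with quantile normalization. With the trend of span removed 0 were higher and 1 was lower. In termination and recycling, Pelo (14.9 and 35.1 FPKM, 1.18), which rescues stalled ribosomes, and Mcts2 (20.5 and 46.8 FPKM, 1.15) were higher in induced cells. These 2 of 9 were 22.2%, against 6.6% of all genes measured, and 3 were higher with median-ratio scaling and 1 with the trend of span removed. Both were also the largest differences in sorted cells (0.70 and 0.72), within the limit, where Pelo was only 1.22 and 2.6 FPKM.

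Of 18 mRNA-binding and scaffold partners, the poly(A)-binding protein gene Pabpc4 (12.7 and 33.3 FPKM, 1.33) and the helicase gene Ddx3x (8.38 and 18.3 FPKM, 1.04) were higher in KLF3-GFP positive cells. They were 11.1% of the list, against 13.8% of all genes measured. With quantile normalization or the trend of span removed 1 was higher, and with all trends removed 0. In induced cells 15 of the 18 were below 0 (12 with median-ratio scaling), where 6644 of the 11179 genes measured were below 0. Ddx3x was the 1 that was lower (92.8 and 39 FPKM, -1.23), followed by Gigyf2, a partner of the Eif4e2 protein (31.8 and 15.8 FPKM, -0.97). Of the mTOR list, Mtor itself was lower in KLF3-GFP positive cells (22.6 and 10.4 FPKM, -1.05), next to Rps6ka1 at 0.98. In induced cells the S6 kinase gene Rps6kb2 was higher (8.24 and 19.5 FPKM, 1.15) and Deptor, an mTOR inhibitor, lower (4.86 and 1.85 FPKM, -1.04). With median-ratio scaling or quantile normalization 1 gene of this list was higher and 0 lower. With the trend of span removed 0 were past the limits.

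Downstream of eIF2 phosphorylation, Atf4 was 24.4 and 22.9 FPKM in sorted cells (-0.08) and 245 and 201 FPKM in induced cells (-0.29). Its targets did not move as 1 group in sorted cells. Nupr1 (140 and 25.4 FPKM, -2.42), Trib3 (5.7 and 1.06 FPKM, -1.70) and Asns (196 and 81.3 FPKM, -1.26) were lower, and Ddit3 (9.48 and 21 FPKM, 1.07) was higher. Of the 12 genes of this list, 25% were lower, against 8.32% of all genes measured, and 6 were above 0. The call of Ddit3 was not kept with quantile normalization or with either trend removal. In induced cells Impact (23.7 and 8.15 FPKM, -1.43), which inhibits activation of the Eif2ak4 kinase, and Chac1 (10.9 and 3.85 FPKM, -1.30) were lower. Ppp1r15a, which directs the phosphatase of eIF2α, was higher (29.9 and 74.3 FPKM, 1.28), a call not kept with either trend removal. None of the 12 entries for mitochondrial translation factors, which include Mtif3 under 2 identifiers, was past the limits in sorted cells. Of these, 11 were below 0, as were 4431 of the 9212 genes measured, with Mtif3 at -0.76 and -0.39 and Mtrf1 at -0.68. In induced cells Mtif3 (9.11 and 1.95 FPKM, -1.78) and Gfm1 (47.9 and 23.3 FPKM, -1.01) were lower of 11 (18.2%, against 10.1% of all genes). With median-ratio scaling or the trend of span removed 1 was lower.

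KLF3 is known to bind CACCC elements through its zinc fingers, so promoters of the factors were read for this element. RefSeq promoters (250 bases before to 50 after the start, GRCm38.p6) were at hand for 47 of the 61 factors. On either strand, CACCC stood in 25 of them (53.2%), against 57.2% of 8674 other genes measured, and the longer CCACACCC in 2 (4.26%), Eif2ak4 and Eif3j1, against 3.29%. Of the factors past 2-fold after KLF3 induction with a promoter at hand, CACCC stood in 3 of 5 that were higher and 2 of 4 that were lower. Below, 35 bases around 1 CACCC (or its reverse GGGTG) are shown in the orientation of the gene with the element in capitals (2 overlapping copies in Eif2b5) for 3 of these 5 factors, to show the element in factors of both directions.

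Eif3a, lower, 101 bases before the start, chr19:60790780-60790814, minus strand: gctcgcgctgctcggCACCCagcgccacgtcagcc
Eif3f, higher, 209 bases before, chr7:108934186-108934220, plus strand: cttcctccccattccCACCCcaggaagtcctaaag
Eif2b5, higher, 42 bases before, chr16:20498755-20498789, plus strand: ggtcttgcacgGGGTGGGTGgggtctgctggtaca

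Other elements known from promoters of translation genes were also read. The E-box CACGTG, to which MYC binds, stood in 9 of 47 factor promoters (19.1%) against 8.78% of other genes, and CCGGAAG, an ETS element, in 10 (21.3%) against 14.7%. A TOP-like tract near the start stood in 12 (25.5%) against 31.9%. Of the listed TOP mRNAs it was found in Eef1a1, Eif3f and Eif4b, but not in Eef2 and Eif3a, whose promoters were at hand. The scan thus missed some known TOP mRNAs. No binding was measured here, and these shares describe the letters only. The factors with an E-box were Eef2, Eef2k, Eif1b, Eif3f, Eif3k, Eif4a1, Eif4g1, Eif4h and Eif5a2, and after KLF3 induction only Eif3f of these was past 2-fold. The windows of 4 of them, with the E-box in capitals, show it at different distances in factors that were above 0 (Eif3f, Eif3k) and below 0 (Eif5a2, Eef2) in induced cells.

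Eif3f, 62 bases before the start, chr7:108934333-108934367, plus strand: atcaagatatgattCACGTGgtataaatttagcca
Eif3k, 38 bases before, chr7:28981912-28981946, minus strand: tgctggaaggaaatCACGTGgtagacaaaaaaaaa
Eif5a2, 111 bases before, chr3:28781146-28781180, plus strand: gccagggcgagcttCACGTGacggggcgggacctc
Eef2, 37 bases before, chr10:81176574-81176608, plus strand: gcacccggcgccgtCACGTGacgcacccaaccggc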

How the data were processed

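RNA-seq was analysed from 2 deposited tables, 1 per experiment, with 1 FPKM column per condition. According to the submitters' processing notes, the authors aligned reads to mm10 with STAR (version 2.6.0) and computed FPKM with Cufflinks (version 2.2.1). The deposited FPKM are means of 2 replicates, rounded to 2 decimals, with a lowest value of 0.1, for protein-coding genes. Differences were taken as log2(FPKM + 1) with a pseudocount of 1, for genes averaging 1 FPKM or more over the columns, with Python (3.11.15) and pandas (2.3.3), and scripts were tested on simulated data. The planned limma fits needed replicate values and were not run. Depth is unknown, and no counting interval is given. Where an identifier had several loci, the locus of highest mean was kept. Loci are those of the tables, and neighbouring genes, transcript lengths and GC content came from GENCODE M21. Alternatives were a pseudocount of 0.1, no minimum or a minimum of 5 FPKM, median-ratio scaling, quantile normalization and removal of the lowess trend (fraction 0.3) with genomic span. Removal of trends with span, transcript length and GC together was added after seeing the data. The factors and gene lists were chosen with earlier results of these data known. Named are, in each complex, the factor with the highest level and the 2 with the largest difference per experiment, every factor past 2-fold, the restricted paralogs, and the 2 largest differences in each list of related genes. Other named genes were chosen after their values were seen. The promoter window of 1 factor is not reported here.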

Additional observations from a re-analysis of the deposited data

How the results depend on the processing

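Under the 7 alternatives, 33 of 42 summary values and 951 of 973 values of single factors or complexes moved by no more than 1.5 times (counts and folds). In sorted cells the count of higher factors (1, Eif4g3) was 0 with a minimum mean of 5 FPKM, median-ratio scaling, quantile normalization, the trend of span removed and all trends removed. In induced cells the count of higher factors (8) was 3 with quantile normalization, 4 with the trend of span removed and 4 with all trends removed, and the median of the factors (0.18) was -0.03 with all trends removed, where that of all genes was -0.24. The cause was not tested. Eif4ebp3, Eif4a3, Eif4e, Eif3a, Eif4ebp2 and Eif4a2 in induced cells, and Eif2b3 and Eif4ebp1 in sorted cells, were past 2-fold under every alternative run. Without values per replicate, leaving out a replicate was not run. No paired analysis was possible because the columns carry no replicate numbers. Unknown depth limits what can be said of factors near 1 FPKM.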
